A study of Mus musculus with 16 samples.

Results

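A set of 10 collagen genes was followed across mouse rotator cuff muscle: the fibrillar genes Col1a1, Col1a2, Col3a1, Col5a1 and Col5a2, the basement membrane genes Col4a1 and Col4a2, and the type VI genes Col6a1, Col6a2 and Col6a3. They were chosen by gene symbol, and all 10 of 10 were found among the 11710 genes of the deposited count table. RNA was sequenced from 16 samples in 4 groups of 4. The groups were unoperated C57BL/6J mice (BL6), C57BL/6J mice after tenectomy and denervation (operated BL6), unoperated MRL/MpJ mice (MRL), and MRL/MpJ mice after the same surgery (operated MRL). BL6 is a common inbred reference strain, and MRL is an inbred strain studied for its unusual wound healing. Unoperated animals were the controls, so the effect of the tendon cut and that of the denervation cannot be told apart. The muscle is the infraspinatus in the series description and the supraspinatus in the sample labels, and it is called rotator cuff muscle here. Age, sex and the time after surgery were not given in the sources used here. The labels do not say that every sample came from a separate animal, so the p-values below measure only the spread between these samples.

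Collagens are secreted proteins whose chains wind together into a triple helix, and glycine takes the third place of each amino acid triplet in that helix. Type I and type III collagen form the fibrils that give tendon and the connective tissue of muscle their tensile strength, and type V collagen joins them and helps to set fibril diameter. Type IV collagen builds the sheet-like basement membrane around muscle fibres, vessels and nerves, whereas type VI collagen forms beaded microfilaments between that membrane and the surrounding matrix. In muscle the fibrillar and type VI chains are made largely by fibroblasts and fibro-adipogenic progenitors, and accumulation of collagen is a known feature of injured and denervated muscle.

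Total counts ranged from 24323862 to 43552964 per sample, and 3 counts, used as the detection limit, equalled 0.0689 to 0.123 CPM (the counts of a gene scaled to a common library size), a limit that covers counting error only. All 10 genes lay far above it, the lowest single value being 22.8 CPM for Col5a2 in an unoperated BL6 sample. A pair of samples, replicate 4 of operated BL6 and replicate 1 of unoperated MRL, stood apart from their groups and are shown separately where stated. The 10 collagen genes took 1.19% of all counts in operated BL6 replicate 4, against 0.133% to 0.275% in the other operated BL6 samples. In unoperated MRL replicate 1 they took 0.270%, against 0.124% to 0.131% in the rest of its group. Summed markers of tendon, cartilage and bone, macrophages, fibroblasts, endothelium, pericytes and adipocytes were also the highest of the group in both samples. Schwann cell markers were not, at 505 CPM against 541 in operated BL6 replicate 1, and 123 against 133 CPM in unoperated MRL replicate 4. The muscle fibre sum was the lowest of its group in operated BL6 replicate 4, at 46623 CPM. In unoperated MRL replicate 1 it lay within the range of the group. The 7 tendon markers summed to 1259 CPM in operated BL6 replicate 4 and to 282 to 394 CPM in the rest of that group, and the 4 cartilage and bone markers to 66.8 against 1.41 to 14.1 CPM. In unoperated MRL replicate 1 the same sums were 327 against 103 to 139 CPM and 14.4 against 1.30 to 4.58 CPM. The 6 macrophage markers summed to 198 against 32.9 to 58.6 CPM in operated BL6 and to 120 against 31.7 to 37.1 CPM in unoperated MRL. No listed marker in the table was at 0 in all samples, and the part of these markers in the collagen values was not tested.

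**Figure D1:**
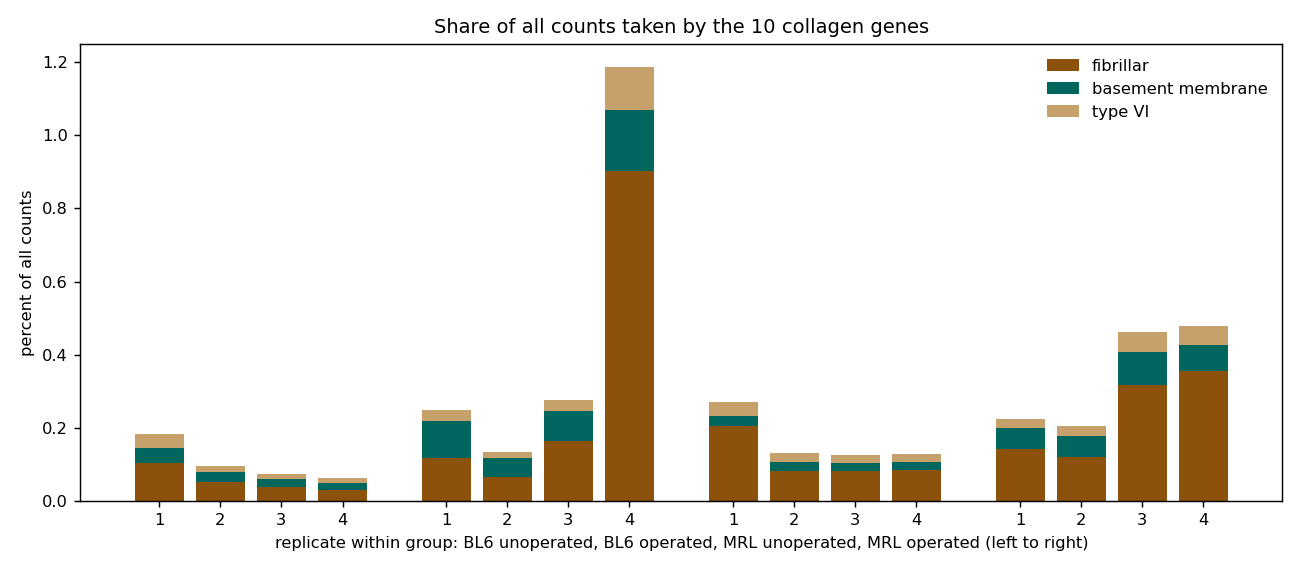
Percent of all counts taken by the 5 fibrillar, 2 basement membrane and 3 type VI collagen genes (stacked bars, vertical axis) in each of the 16 samples (horizontal axis, replicates within group). Replicate 4 of operated BL6 reaches 1.19%, and the fibrillar genes make up 0.903% of its counts.

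The 3 families differ in how long the glycine repeat of their chains runs. In the main coding transcript the longest uninterrupted run of glycine codons, 1 per triplet, held 338 triplets in Col1a1 and Col5a1, 339 in Col1a2 and Col5a2, and 344 in Col3a1. In type IV collagen the repeat is broken up, with a longest run of 40 triplets in Col4a1 and 66 in Col4a2 and 18 runs of at least 10 triplets in each. Type VI chains had short repeats, with 87 triplets in Col6a1 and in Col6a2 and 45 in Col6a3. The 90 coding bases below, from the GENCODE M21 transcripts of GRCm38, show how the longest run ends in 1 member of each family. Capitals mark the glycine codons of the last 5 triplets of the run, and after them that spacing stops.
Col1a1 (codons 1167 to 1196): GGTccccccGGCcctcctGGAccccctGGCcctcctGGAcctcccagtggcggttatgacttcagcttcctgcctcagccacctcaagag
Col4a1 (codons 148 to 177): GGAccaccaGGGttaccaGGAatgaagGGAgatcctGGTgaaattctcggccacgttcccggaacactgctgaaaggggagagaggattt
Col6a1 (codons 502 to 531): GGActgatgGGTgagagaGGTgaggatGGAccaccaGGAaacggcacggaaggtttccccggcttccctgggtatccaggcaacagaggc
In Col1a1 the stretch lies at the end of the helical domain, whereas in Col4a1 and Col6a1 further glycine repeats follow.

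Levels can be compared between genes only per length, so CPM were divided by the length of the main coding transcript in kilobases. In unoperated BL6 muscle Col3a1 was highest at 41.0 ± 28.6 CPM per kb (SD, n = 4), followed by Col1a2 at 33.2 ± 13.3 and Col4a1 at 26.0 ± 9.79. Col6a1, at 20.5 ± 9.64, Col6a2, at 20.4 ± 9.80, Col4a2, at 18.7 ± 5.64, and Col1a1, at 17.7 ± 6.22, lay within an SD of one another. Col5a2 (5.50 ± 3.16), Col6a3 (4.92 ± 2.27) and Col5a1 (4.79 ± 2.35 CPM per kb) formed the low end and also lay within an SD of one another. The step from Col1a1 to Col5a2 was the 1 place in this order where neighbours differed by more than their SDs. In unoperated MRL without replicate 1, Col1a2 (52.4 ± 1.22, n = 3) and Col3a1 (51.2 ± 5.36) led and differed by less than their spread. After surgery in MRL, Col3a1 held 137 ± 64.3 CPM per kb (n = 4), Col1a2 133 ± 56.9 and Col1a1 82.8 ± 45.3, and Col5a1 and Col6a3 remained lowest at 11.1 ± 4.73 and 8.69 ± 3.02.

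Surgery raised 8 of the 10 collagen genes in BL6 and 2 of 10 in MRL when all samples were used (quasi-likelihood test of edgeR, adjusted p under 0.05 by Benjamini-Hochberg over 11709 genes). In BL6 these were all 5 fibrillar genes, both type IV genes and Col6a1, and in MRL Col4a1 and Col4a2. None fell in either strain. The background is wide: in BL6 67.9% of all genes tested were called and 35.1% were called higher, and in MRL 45.0% were called and 22.3% called higher. The median log2 fold change of the 10 genes was 1.68 in BL6 and 0.93 in MRL, beside 0.04 and 0.0072 over all genes tested. Without the samples that stood apart the medians were 0.76 in BL6 and 1.33 in MRL, so their order was reversed. Over all genes they were then 0.03 in each strain. Both counts turned on the samples that stood apart. Without them 4 of 10 genes were called higher in BL6 (Col1a1, Col1a2, Col4a1 and Col4a2), where 64.2% of all genes were called and 32.7% called higher, and 8 of 10 in MRL (all but Col6a1 and Col6a2), where 55.0% were called and 29.1% called higher. Leaving out only operated BL6 replicate 4 gave 4 genes in BL6 and 6 in MRL, where 7432 and 6006 of the 11709 genes were called. All groups share 1 estimate of the spread in this fit, and the cause of the change in MRL was not tested. Leaving out only unoperated BL6 replicate 4 gave 5 in BL6, where 7189 of all genes were called. Omitting unoperated BL6 replicate 2 or 3 gave 7 and 6, where 7488 and 7326 were called. Other omissions raised the BL6 count. It was 10 without unoperated replicate 1, 10 without operated replicate 2 and 9 without operated replicate 3, where 7731, 8177 and 7474 of all genes were called. In bulk RNA a change in the number of collagen-making cells and a change in RNA per cell cannot be told apart.

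**Figure D2:**
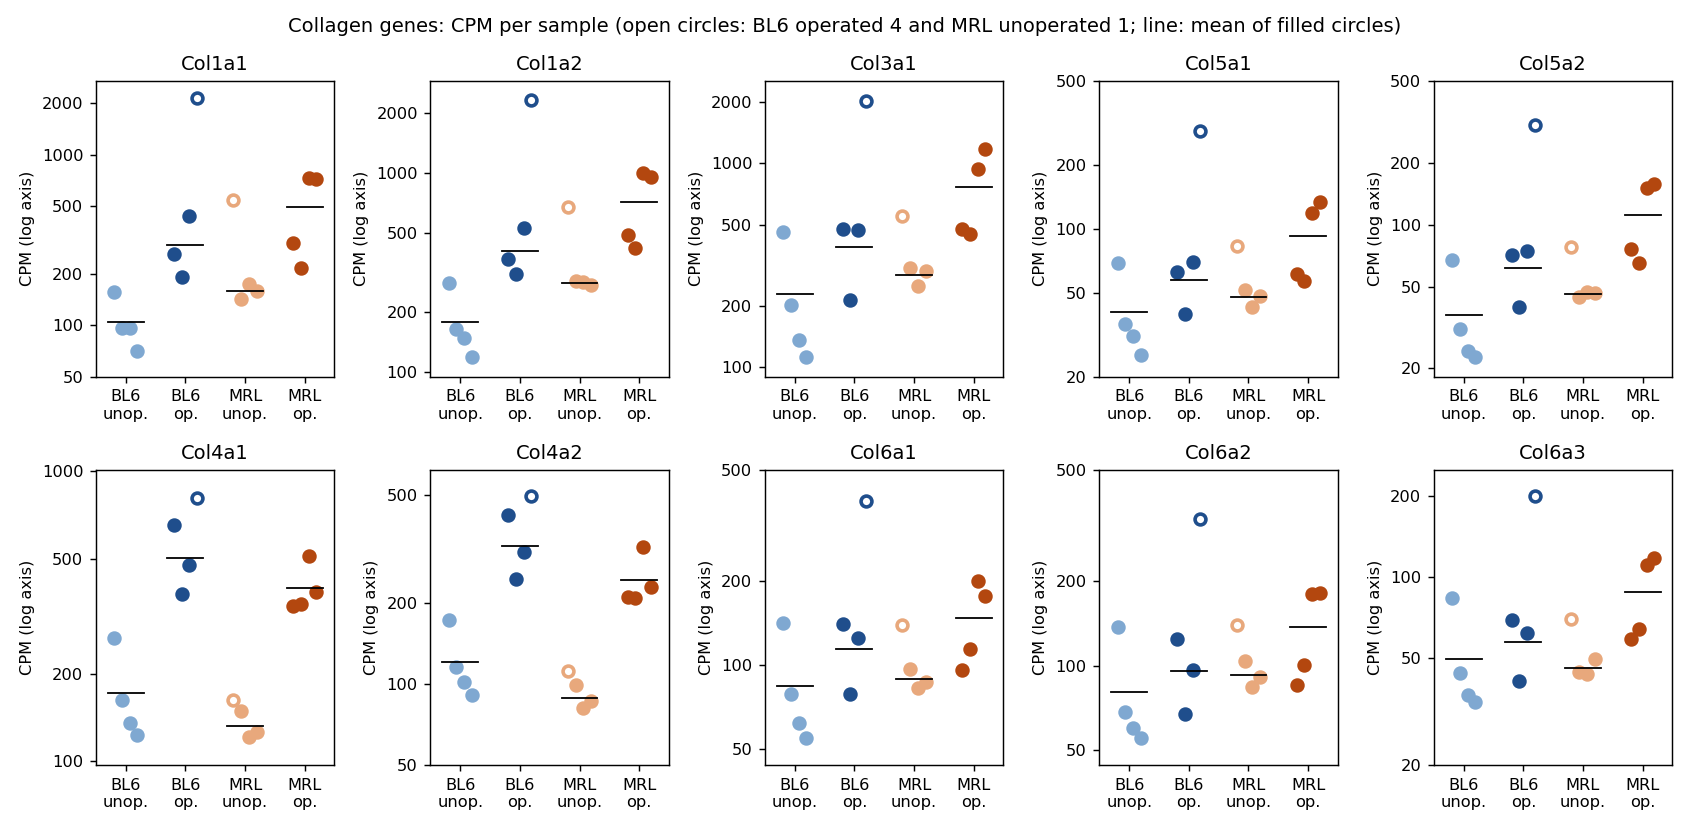
CPM (vertical log axis) of each collagen gene in every sample of the 4 groups (horizontal axis, unop. for unoperated and op. for operated). Open circles are operated BL6 replicate 4 and unoperated MRL replicate 1, and each line is the mean of the filled circles. Col4a1 and Col4a2 separate operated from unoperated samples in both strains, while the type VI genes overlap in both with all samples counted.

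Type IV collagen gave the steadiest rise. Col4a1 (ENSMUSG00000031502; chromosome 8, 11198423 to 11312826, minus strand), which codes for the alpha 1 chain, held 266, 163, 136 and 123 CPM in the 4 unoperated BL6 samples and 655, 377, 477 and 810 CPM in the operated ones. Every operated BL6 sample lay above every unoperated one, and operated replicate 4 was the highest of them. This 3.37-fold rise equalled 1.75 on the log2 scale, SE 0.26 (adjusted p = 6.35e-05, edgeR). For MRL the unoperated samples held 163, 149, 121 and 126 CPM and the operated ones 343, 349, 510 and 383 CPM, again without overlap. That was a 2.84-fold rise, 1.50 on the log2 scale (SE 0.26, adjusted p = 0.00115, edgeR). Without the samples that stood apart the values were 1.55 in BL6 and 1.59 in MRL.

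Col4a2 (ENSMUSG00000031503; chromosome 8, 11312805 to 11449287, plus strand) codes for the alpha 2 chain, which joins paired alpha 1 chains in the common form of the molecule. Its unoperated BL6 samples held 173, 116, 102 and 91.5 CPM and its operated ones 422, 245, 309 and 498 CPM. In MRL it held 112, 98.9, 81.6 and 86.8 CPM unoperated and 209.5, 209.2, 322 and 229.8 CPM operated. The groups did not overlap in either strain. The log2 fold change was 1.61 in BL6 (SE 0.24, adjusted p = 6.10e-05, edgeR) and 1.36 in MRL (SE 0.24, adjusted p = 0.00122, edgeR). Among all genes tested, 27.5% lay higher without overlap in BL6 and 17.0% in MRL. Both type IV genes were called in both strains under every alternative scaling, filter, test and left-out sample that was run. Col4a1 and Col4a2 lie head to head on chromosome 8, with starts 21 bp apart and 22 bp of exons shared on opposite strands. Strand use in the counting was not given in the sources used here, and the shared bases are 0.295% of the Col4a1 exon length. Of the 10 laminin and other basement membrane genes listed, 7 were called higher in BL6 and 3 in MRL and none lower, and without the samples that stood apart 6 were higher and 1 lower in BL6 and 3 higher in MRL. The share of all genes called higher was 35.1% in BL6 and 22.3% in MRL, and 32.7% and 29.1% without those samples. The MRL count was thus near the share of all genes. Agrn, which codes for the basement membrane proteoglycan agrin, went from 28.0 ± 2.89 to 67.4 ± 17.5 CPM in BL6 (SD, n = 4) and from 26.5 ± 3.21 to 54.0 ± 10.5 CPM in MRL, log2 fold changes of 1.27 and 1.02. Beside these values, the 6 endothelial markers summed to 305 to 448 CPM in unoperated and 645 to 826 CPM in operated BL6, and to 242 to 334 and 354 to 838 CPM in MRL. Of the 6 markers, 5 were called higher in BL6 and 6 in MRL, beside 35.1% and 22.3% of all genes, and Pecam1 had log2 fold changes of 1.28 and 1.07. The part of endothelium in the type IV values was not tested.

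Type I collagen, the main fibril component, was the next clearest in BL6. Col1a1 (ENSMUSG00000001506; chromosome 11, 94936224 to 94953042) codes for its alpha 1 chain and held 157, 96.3, 95.9 and 70.4 CPM in unoperated BL6 and 264, 192, 435 and 2161 CPM in operated BL6. All operated samples lay above all unoperated ones, but replicate 4 exceeded the next highest by far. The 7.27-fold rise, 2.86 on the log2 scale (SE 0.72, adjusted p = 0.00269, edgeR), became 2.82-fold, or 1.50 (SE 0.40, adjusted p = 0.00490, edgeR), without the samples that stood apart. In MRL, Col1a1 held 539, 143, 176 and 159 CPM unoperated and 304, 216, 725 and 718 CPM operated. Unoperated replicate 1 lay above the lower pair of operated samples, while the other unoperated samples lay below all operated ones. With all samples the log2 fold change was 0.95 (SE 0.68, adjusted p = 0.256, edgeR), and without those that stood apart 1.63 (SE 0.42, adjusted p = 0.00558, edgeR).

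Col1a2 (ENSMUSG00000029661; chromosome 6, 4504814 to 4541544), which codes for the alpha 2 chain of type I collagen, held 280, 164, 147 and 118 CPM in unoperated BL6 and 370, 309, 529 and 2319 CPM in operated BL6, with no overlap. Its log2 fold change of 2.31 (SE 0.59, adjusted p = 0.00289, edgeR) became 1.18 (SE 0.33, adjusted p = 0.00649, edgeR) without the samples that stood apart. Col1a1 and Col1a2 stayed called in BL6 under every alternative that was run. In MRL, Col1a2 held 672, 286, 282 and 273 CPM unoperated and 485, 419, 1002 and 948 CPM operated. Only unoperated replicate 1 overlapped the operated samples. For Col1a2 this gave 0.92 (SE 0.56, adjusted p = 0.190, edgeR) with all samples and 1.36 (SE 0.34, adjusted p = 0.00516, edgeR) without those that stood apart.

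Col3a1 (ENSMUSG00000026043; chromosome 1, 45311538 to 45349706) codes for type III collagen, the fibril partner of type I in distensible tissue. In unoperated BL6 it held 459.99, 203, 137 and 112 CPM and in operated BL6 477, 214, 473 and 2027 CPM. The groups overlapped, since unoperated replicate 1 lay above operated replicate 2. The log2 fold change was 1.81 (SE 0.61, adjusted p = 0.0163, edgeR), and the call was lost without operated BL6 replicate 4 (0.76, adjusted p = 0.170, edgeR) or without unoperated BL6 replicate 4 (1.58, adjusted p = 0.0504, edgeR). In MRL the values were 551, 306, 251 and 298 CPM unoperated and 478, 452, 942 and 1180 CPM operated, where again unoperated replicate 1 alone reached into the operated range. Its log2 fold change there was 1.12 (SE 0.60, adjusted p = 0.136, edgeR), and 1.43 (SE 0.48, adjusted p = 0.0210, edgeR) without the samples that stood apart.

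The type V chains stood lower per length, and their BL6 groups overlapped as those of Col3a1 did. Col5a1 (ENSMUSG00000026837; chromosome 2, 27886425 to 28039514) held 69.2, 35.5, 31.2 and 25.2 CPM in unoperated BL6 and 62.4, 39.6, 70.0 and 291 CPM in operated BL6. Col5a2 (ENSMUSG00000026042; chromosome 1, 45374321 to 45503282, minus strand) held 67.3, 31.3, 24.3 and 22.8 CPM and then 70.9, 39.7, 74.4 and 304 CPM. In both genes unoperated replicate 1 overlapped the operated group. The log2 fold changes of 1.52 for Col5a1 (SE 0.53, adjusted p = 0.0194, edgeR) and 1.75 for Col5a2 (SE 0.55, adjusted p = 0.0105, edgeR) became 0.51 and 0.76 without the samples that stood apart (adjusted p = 0.219 and 0.0954, edgeR), and neither was then called. The Col5a1 call was also lost without unoperated BL6 replicate 3 or replicate 4 (log2 fold changes 1.42 and 1.36). In MRL, Col5a1 held 83.1, 51.2, 42.8 and 48.2 CPM unoperated and 61.3, 56.8, 119 and 135 CPM operated, and Col5a2 held 77.8, 44.5, 46.9 and 46.6 and then 75.9, 64.9, 150.2 and 157 CPM. Unoperated replicate 1 overlapped the operated samples in both genes, and the other unoperated samples did not. The log2 fold changes were 0.72 and 1.05 with all samples (adjusted p = 0.263 and 0.117, edgeR) and 0.98 and 1.30 without those that stood apart (adjusted p = 0.0330 and 0.0141, edgeR). Without those samples all 5 fibrillar genes lay higher after surgery in MRL with no overlap, as did 26.4% of all genes tested.

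Promoters of the fibrillar genes differ in base composition, as the 250 bases before the start of Col3a1 and Col5a1 show. Both are from RefSeq on GRCm38.p6 and run 5′ to 3′ on the plus strand, with capitals marking matches to TATA, GC box and CCAAT motifs on either strand. The promoter reference used held 8 of the 10 genes. Among the fibrillar genes it held, only the windows shown contain no annotated exon.
Col3a1 (chr1:45311288-45311537): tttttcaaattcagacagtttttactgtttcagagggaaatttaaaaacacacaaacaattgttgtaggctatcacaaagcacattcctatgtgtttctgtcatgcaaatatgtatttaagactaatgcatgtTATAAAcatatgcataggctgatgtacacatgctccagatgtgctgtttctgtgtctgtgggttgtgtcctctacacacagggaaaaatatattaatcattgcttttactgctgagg
Col5a1 (chr2:27886175-27886424): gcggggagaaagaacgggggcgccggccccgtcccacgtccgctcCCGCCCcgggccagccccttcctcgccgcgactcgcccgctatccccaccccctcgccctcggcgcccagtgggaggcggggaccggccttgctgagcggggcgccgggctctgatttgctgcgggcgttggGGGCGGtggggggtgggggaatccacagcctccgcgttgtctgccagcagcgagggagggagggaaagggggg
The Col3a1 window was 35.2% G and C and held 1 match to the TATA motif TATAAA, at position -117 from the start. That motif was found in 12.4% of all promoters of this length. The Col5a1 window was 76.4% G and C and held 2 matches to the GC box GGGCGG, found in 32.8% of promoters. Neither held CCAAT, which 33.9% of promoters did. Col3a1 and Col5a2 are neighbours on chromosome 1, 24614 bp apart with 0 coding genes between them.

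Type VI collagen had the smallest family median log2 fold change with all samples, 0.95 (BL6) and 0.53 (MRL). Col6a1 (ENSMUSG00000001119; chromosome 10, 76708792 to 76726168, minus strand) held 141, 78.3, 62.0 and 54.6 CPM in unoperated BL6 and 140.1, 78.9, 124 and 386 CPM in operated BL6. The groups overlapped through unoperated replicate 1, and only operated replicate 4 lay above all unoperated samples. Its log2 fold change of 1.12 (SE 0.43, adjusted p = 0.0295, edgeR) became 0.44 (SE 0.32, adjusted p = 0.237, edgeR) without the samples that stood apart. Leaving out unoperated BL6 replicate 2, 3 or 4 also ended the call, with values of 1.08, 0.996 and 0.957. In MRL it held 139, 96.9, 82.6 and 86.6 CPM unoperated and 96.1, 114, 201 and 176 CPM operated. In log2 terms the change was 0.53 with all samples (adjusted p = 0.304, edgeR) and 0.74 without those that stood apart (adjusted p = 0.0683, edgeR), and the groups overlapped in both cases.

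Col6a2 (ENSMUSG00000020241; chromosome 10, 76595762 to 76623630, minus strand) and Col6a3 (ENSMUSG00000048126; chromosome 1, 90765923 to 90843971, minus strand) code for the chains that assemble with alpha 1. Col6a2 held 55.2 to 138 CPM in unoperated BL6 and 67.6 to 333 CPM in operated BL6, and its change was 0.95 on the log2 scale (SE 0.44, adjusted p = 0.0641, edgeR). Col6a3 held 34.3 to 83.5 and 41.3 to 200.3 CPM, and its change was 0.91 on that scale (SE 0.42, adjusted p = 0.0674, edgeR). Neither passed the threshold with all samples, and without those that stood apart the values were 0.25 and 0.21. Both passed it without unoperated BL6 replicate 1 (1.35 and 1.29) and without operated BL6 replicate 2 (1.20 and 1.16), and Col6a2 also without operated BL6 replicate 3 (1.12). In MRL, Col6a3 held 69.7, 44.6, 43.6 and 49.8 CPM unoperated and 59.0, 64.0, 111 and 117 CPM operated, 0.76 on the log2 scale (adjusted p = 0.149, edgeR) and 0.94 without the samples that stood apart (adjusted p = 0.0228, edgeR). Col6a2 held 140, 104, 84.1 and 90.9 and then 85.7, 100.4, 181 and 182 CPM, with values of 0.39 (adjusted p = 0.466, edgeR) and 0.57 (adjusted p = 0.162, edgeR). Without unoperated replicate 1, all operated MRL samples lay above all unoperated ones for Col6a3, while for Col6a2 the groups still overlapped. The difference between the genes was not tested.

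**Figure D3:**
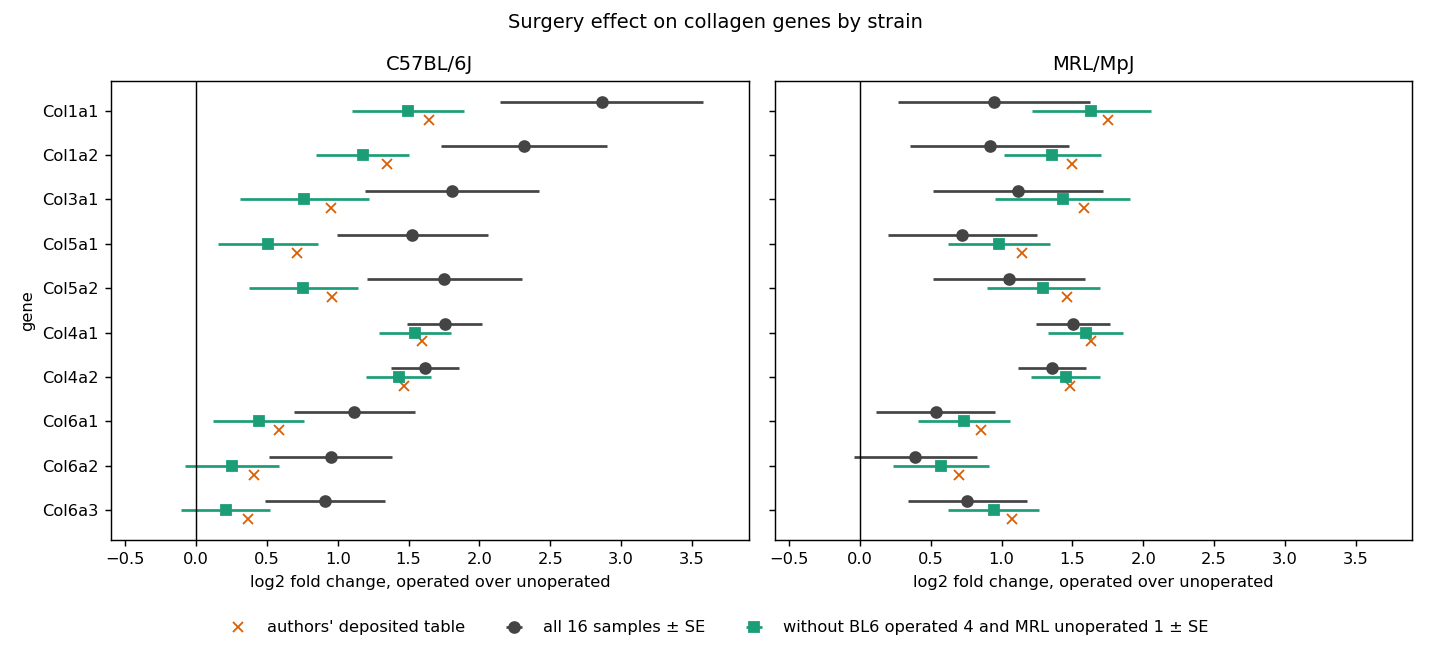
Log2 fold change of operated over unoperated samples (horizontal axis) for each collagen gene in C57BL/6J (left) and MRL/MpJ (right). Circles are all 16 samples and squares the fit without operated BL6 replicate 4 and unoperated MRL replicate 1, both with bars of 1 SE, and crosses are the authors' deposited table. Leaving out the 2 samples lowers the BL6 value and raises the MRL value of every gene, and moves Col4a1 and Col4a2 least in BL6.

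The study asks whether the strains respond differently, and the interaction tests that directly. For 0 of the 10 collagen genes did the surgery effect differ between the strains (edgeR, adjusted p under 0.05), where 0.248% of all genes did. The count was also 0 at an unadjusted p under 0.05, which 1842 of the 11709 genes tested reached. DESeq2 also called 0 of the 10, where it called 250 of the 11709 genes. At these shares a count of 0 among 10 genes does not set the collagen genes apart from all genes. With all samples the interaction (the MRL minus the BL6 log2 fold change) was negative for every gene, from -1.91 with an SE of 0.96 for Col1a1 to -0.15 with an SE of 0.59 for Col6a3. Without the samples that stood apart it was positive for every gene, from 0.02 with an SE of 0.33 for Col4a2 to 0.73 with an SE of 0.45 for Col6a3. The sign of all 10 values thus differed with and without operated BL6 replicate 4 and unoperated MRL replicate 1, and without them 0.188% of all genes and 0 of the 10 were called.

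Between strains without regard to surgery effect, 0 of 10 genes differed among unoperated samples, where 10.4% of all genes did, and 0 of 10 among operated samples, where 12.9% did (edgeR, adjusted p under 0.05). These comparisons use the same groups as the surgery comparisons. The counts at an unadjusted p under 0.05 were 0 among unoperated and 2 among operated samples, the latter Col4a1 and Col4a2. Without the samples that stood apart the 2 among operated samples were instead Col1a2 and Col5a2. No share of all genes at that threshold is given here, so these counts cannot be set against it. DESeq2 called 0 among unoperated and 0 among operated samples, where it called 1666 and 1932 of the 11709 genes. Without the samples that stood apart edgeR again called 0 of 10 in both, where 9.67% and 14.1% of all genes were called. Among unoperated samples Col1a1 and Col1a2 had the largest values, 1.28 (SE 0.68) and 1.09 (SE 0.57) on the log2 scale, higher in MRL, and 0.59 and 0.65 without the samples that stood apart. Among operated samples Col4a1 and Col4a2 were at -0.55 (SE 0.26) and -0.60 (SE 0.23), lower in MRL, with adjusted p = 0.182 and 0.108 in edgeR. Col4a2 passed the threshold there without operated BL6 replicate 2 (-0.76) or without operated MRL replicate 3 (-0.77). Scaling by total counts alone changed no member's call but shifted the split over all genes, from 588 higher and 628 lower in MRL among unoperated samples to 741 and 313, and from 890 and 617 among operated samples to 994 and 383.

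The authors' deposited table gives its own values for the surgery comparisons. By the authors' deposited table, 4 of the 10 genes passed a false discovery rate of 0.05 in BL6, as did 64.9% of its genes, and 9 of 10, all but Col6a2, in MRL, where 56.4% did. Col1a1 stood at 1.64 in BL6 and 1.75 in MRL in the authors' deposited table, and Col4a1 at 1.60 and 1.63. Over the 10 genes the mean absolute difference in log2 fold change between the authors' deposited table and the fit here was 0.656 in BL6 and 0.388 in MRL with all samples, and 0.147 and 0.119 without the samples that stood apart. The model behind that table was not given in the sources used here.

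The ratio of 2 genes within a sample does not depend on how libraries are scaled, and it shows whether the chains of a molecule moved in step. For this, 6 ratios were tested in each strain with two-sided exact permutation tests, 12 in all, where 4 samples against 4 cannot go below p = 0.0286. After Benjamini-Hochberg adjustment 0 of the 12 passed 0.05, the lowest adjusted p being 0.0857. With that limit on p, a ratio could pass only if several others reached the limit as well. The count therefore does not show that the chains moved in step. The ratio of Col5a1 to Col5a2 was lower after surgery in both strains. In BL6 it ranged from 1.03 to 1.29 unoperated and from 0.880 to 0.995 operated, and in MRL from 0.913 to 1.15 and from 0.795 to 0.875. Neither strain's groups overlapped, with log2 differences of -0.27 and -0.32 (exact p = 0.0286 for each, adjusted p = 0.0857). The ratio of Col4a1 to Col4a2 ranged from 1.34 to 1.54 unoperated and from 1.536 to 1.63 operated in BL6, where the ranges overlapped narrowly, and from 1.45 to 1.50 and from 1.59 to 1.67 in MRL, where they did not. The log2 differences were 0.16 (exact p = 0.0571) and 0.15 (exact p = 0.0286), with adjusted p = 0.0980 and 0.0857. Operated BL6 replicate 4 lay within the range of its group for Col5a1 to Col5a2.

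None of the type VI ratios passed after adjustment, which no single ratio could do alone. The ratio of Col6a3 to Col6a1 ranged from 0.564 to 0.629 in unoperated and from 0.497 to 0.524 in operated BL6, a log2 difference of -0.22 (exact p = 0.0286, adjusted p = 0.0857). In MRL it ranged from 0.460 to 0.575 unoperated and from 0.552 to 0.665 operated, a difference of 0.22 (exact p = 0.0857, adjusted p = 0.103). The BL6 groups did not overlap and the MRL groups did, and the difference between the strains was not tested. Col6a1 to Col6a2 had log2 differences of 0.18 and 0.16 (exact p = 0.0571 and 0.0857, BL6 and MRL). For type I collagen, Col1a1 to Col1a2 averaged 0.599 ± 0.0378 in unoperated and 0.772 ± 0.134 in operated BL6 (SD, n = 4; log2 difference 0.35, exact p = 0.0571), and 0.627 ± 0.127 and 0.656 ± 0.108 in MRL (0.07, exact p = 0.714). Col1a1 to Col3a1 had log2 differences of 0.69 (exact p = 0.0857, BL6) and -0.07 (exact p = 0.829, MRL).

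**Figure D4:**
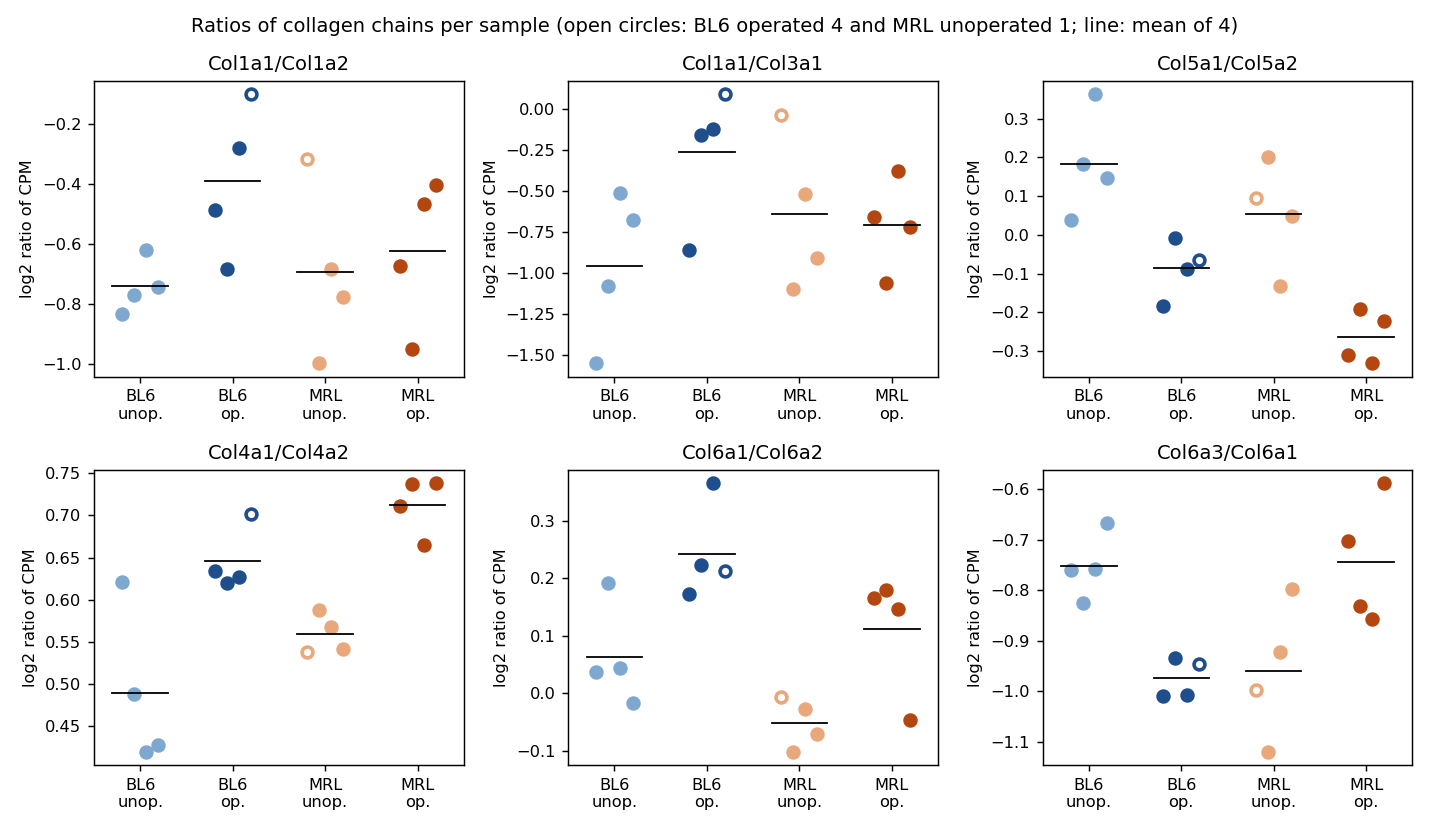
Log2 ratio of the CPM of 2 collagen genes (vertical axis) in every sample of the 4 groups (horizontal axis). Open circles are operated BL6 replicate 4 and unoperated MRL replicate 1, and lines are means of 4 samples. Col5a1/Col5a2 is lower after surgery in both strains with no overlap, and Col6a3/Col6a1 is lower in operated BL6 and higher on average in operated MRL.

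Genes with the most similar pattern were found by the root mean square difference of log2 CPM, centred per gene, over the 16 samples among 9665 genes. For Col1a1 these were Clec11a (0.194), Ctsk (0.241), which codes for the collagen-degrading protease cathepsin K, and Col1a2 (0.242). For Col4a1 they were Col4a2 (0.0970), Tlnrd1 (0.226) and Rnf144a (0.229). For Col6a1 they were Col6a2 (0.128), Col6a3 (0.139) and Mmp2 (0.158), which codes for a gelatinase. Col4a1 ranked 624th for Col1a1 and Col5a1 ranked 26th for Col6a1. These are descriptions across samples that share groups and libraries. The samples include operated BL6 replicate 4 and unoperated MRL replicate 1, and likeness without that pair was not computed.

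Of 34 other collagen genes listed, 22 were tested. In BL6 16 were called higher and 1 lower, and in MRL 5 higher and 0 lower (edgeR, adjusted p under 0.05), while without the samples that stood apart the counts were 11 and 2 in BL6 and 13 and 0 in MRL. Over all genes tested with all samples, 67.9% were called and 35.1% called higher in BL6, and 45.0% and 22.3% in MRL. Among called genes with a mean of at least 5 CPM, the largest rise in BL6 was that of Col8a2, a short-chain network collagen, from 1.91 ± 0.512 to 20.03 ± 27.2 CPM (SD, n = 4), and in MRL that of Col8a1, its partner, from 10.4 ± 3.75 to 36.1 ± 17.0 CPM. Their log2 fold changes were 3.40 for Col8a2 in BL6 and 1.79 for Col8a1 in MRL, and without the samples that stood apart 1.75 and 2.09. Col8a2 was at 1.93 in MRL with all samples, which did not pass the test (adjusted p = 0.0609, edgeR). Col28a1 went from 0.877 ± 0.179 to 5.91 ± 2.33 CPM in BL6, 2.74 on the log2 scale and 2.70 without the samples that stood apart, and was at 0.299 ± 0.236 and 0.500 ± 0.230 CPM in MRL. Its interaction of -1.99 was not called (adjusted p = 0.212, edgeR). Col4a3, a type IV chain of other basement membranes, was the 1 called lower in BL6, from 4.65 ± 0.834 to 2.84 ± 0.339 CPM, with -0.71 on the log2 scale (adjusted p = 0.0207, edgeR). Col15a1, Col20a1, Col23a1, Col4a5 and Col8a1 were called higher in both strains, and Col11a1, Col11a2, Col12a1, Col13a1, Col14a1, Col16a1, Col18a1, Col27a1 and Col5a3 were, beside Col8a2 and Col28a1, called higher in BL6 but not in MRL. Without the samples that stood apart, Col8a1, Col8a2, Col11a1, Col14a1, Col15a1, Col16a1, Col20a1, Col27a1 and Col4a5 were called higher in both strains, Col18a1 and Col28a1 in BL6, and Col11a2, Col12a1, Col23a1 and Col5a3 in MRL. No interaction was called among the 22, so no strain difference in the surgery effect is shown for these genes. Between strains among operated samples, 1 was called higher and 1 lower in MRL, where 12.9% of all genes were called. Without the samples that stood apart these counts were 4 and 1, where 14.1% were called, and among unoperated samples they were 0 and 0 in both fits.

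Genes that make and assemble collagen were followed as well. Of 20 genes for modification and folding in the endoplasmic reticulum, 12 were called higher and 3 lower in BL6 and 6 higher and 2 lower in MRL, and without the samples that stood apart 11 and 3 in BL6 and 12 and 2 in MRL. With both directions together, the share called with all samples was near that of all genes tested (67.9% in BL6 and 45.0% in MRL). Of all genes, 35.1% were called higher in BL6 and 22.3% in MRL, and 32.7% and 29.1% without the samples that stood apart. The share of the list called higher lay above each of these, by the least in MRL with all samples. Serpinh1, the collagen chaperone, went from 80.5 ± 35.8 to 289.9 ± 152 CPM in BL6 and from 83.8 ± 26.3 to 205 ± 12.9 CPM in MRL (SD, n = 4), log2 fold changes of 1.85 and 1.29. It was called in both strains with and without the samples that stood apart. Creb3l1, a transcription factor for secretory cells, had the largest rise in BL6 at 2.10, and Tmem38b, an ion channel of the endoplasmic reticulum, fell in both strains, with log2 fold changes of -1.15 and -0.70. Of 12 genes tested for procollagen processing, fibril assembly and crosslinking, 8 were called higher in BL6 and 2 in MRL, and 7 and 8 without the samples that stood apart. Beside them stand the same shares of all genes called higher. The MRL count with all samples did not exceed its share of 22.3%. Lox, the lysyl oxidase that crosslinks collagen, led in both strains. It went from 4.08 ± 1.34 to 36.2 ± 35.2 CPM in BL6 and from 5.42 ± 1.94 to 25.8 ± 11.7 CPM in MRL, with log2 fold changes of 3.16 and 2.25 (adjusted p = 0.000158 and 0.00430, edgeR), and without the samples that stood apart 2.20 and 2.54.

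Receptors and degrading enzymes followed. Of 10 collagen receptor genes tested, 6 were called higher and 1 lower in BL6 and 2 higher and 1 lower in MRL, and without the samples that stood apart 5 and 1 in BL6 and 6 and 1 in MRL, beside the all-sample background of 67.9% called in BL6 and 45.0% in MRL. Itga1, the alpha chain of a collagen-binding integrin, had the largest called rise in MRL at 0.99 and was at 0.57 in BL6, Antxr1 had the largest in BL6 at 1.80 (0.92 without the samples that stood apart), and Ddr1, a collagen receptor kinase, fell in both strains, with log2 fold changes of -0.60 and -0.46. Of 9 genes of collagen degradation, inhibitors included, 7 were called higher in BL6 and 1 in MRL, and 6 and 5 without the samples that stood apart. Beside this list and the receptors, 35.1% of all genes were called higher in BL6 and 22.3% in MRL. Without those samples these shares were 32.7% and 29.1%. The MRL count of the degradation list with all samples did not exceed its share. Mmp13, a collagenase, went from 1.13 ± 0.976 to 15.7 ± 21.8 CPM in BL6 (log2 fold change 3.79, and 2.14 without the samples that stood apart), and Timp1, an inhibitor of such enzymes, from 1.97 ± 1.24 to 6.01 ± 2.31 CPM in MRL (1.61, and 2.08). The median log2 fold changes of the degradation list were 2.60 in BL6 and 0.73 in MRL, beside 0.04 and 0.0072 over all genes. Without the samples that stood apart they were 1.47 and 0.93, beside 0.03 over all genes in each strain. No interaction was called in any of these lists.

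Markers of cell types were set beside the collagens, and not all of them rose with surgery. The 6 muscle fibre markers summed to 101678 to 139413 CPM in unoperated and 46623 to 112773 CPM in operated BL6, and to 91594 to 104624 and 60269 to 78189 CPM in MRL, and Myh4 was the most abundant. The 8 fibroblast and fibro-adipogenic progenitor markers, led by Dcn, summed to 513 to 1003 and 786 to 1796 CPM in BL6. In MRL they summed to 964 to 1183 and 1108 to 1717 CPM. Of these markers, 5 of 8 were called higher in BL6 and 2 of 8 in MRL. Dcn itself was not called, with log2 fold changes of 0.32 in BL6 and 0.24 in MRL (adjusted p = 0.286 and 0.447, edgeR). Of the 7 tendon markers 6 were called higher in BL6 and 2 in MRL, and Thbs4 had log2 fold changes of 2.47 and 1.51. Pericyte and smooth muscle markers, led by Rgs5, were called higher in 5 of 6 in each strain, macrophage markers, led by Csf1r, in 4 and 1 of 6, adipocyte markers, led by Fabp4, in 5 of 5 in each, Schwann cell markers, led by Pmp22, in 6 and 5 of 6, and cartilage and bone markers, led by Ibsp, in 4 and 0 of 4, BL6 first. Without the samples that stood apart the counts were 4 and 3 of 8 for fibroblasts and 6 and 5 of 7 for tendon. For macrophages they were 6 and 5 of 6, and for cartilage and bone 3 and 2 of 4. No interaction was called in these lists with or without those samples. Over all genes tested 35.1% were called higher in BL6 and 22.3% in MRL with all samples, and 32.7% and 29.1% without those that stood apart. The MRL counts with all samples for fibroblasts, macrophages and cartilage and bone were near or below that share. Dcn, Lum and Fmod stand both in a marker list and in the list of fibril assembly genes. The part of these cell types in the collagen values was not tested.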

How the data were processed

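Per the submitters' processing notes, the authors used FastQC, STAR and edgeR with the mm10 genome build; the counting program, the annotation and the use of strand are not given in the sources used here. The authors deposited raw counts per gene for the 16 samples (whole numbers in the file). Per the file headers, the authors' deposited table gives an average log2 CPM and log2 fold changes, and a p-value and false discovery rate for each of 4 comparisons. The members and gene lists were chosen with earlier results of these data known.

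Counts were scaled with TMM factors and fitted in edgeR 4.0.16 (R 4.3.3) by quasi-likelihood, with 1 mean per group over all 16 samples. The filterByExpr function (minimum count 10) kept 11709 genes and removed 1. Contrasts were surgery within each strain, the interaction, and strain within each surgery group; p-values were adjusted by Benjamini-Hochberg across the whole table, and calls required an adjusted p under 0.05. The SE is the log2 fold change divided by the square root of F. CPM use TMM-scaled library sizes, and log2 CPM a prior count of 2. The fit was tested on simulated data. Alternatives were RLE and total-count scaling, no filter, DESeq2 1.42.0, voom in limma 3.58.1, only the groups compared, the replicate number as a block, and leaving out samples. Besides the 10 members, the genes named are, per list, the called gene of at least 5 CPM with the largest rise and fall in each strain, every other collagen called, the most abundant gene of each marker list, and the 3 genes most like Col1a1, Col4a1 and Col6a1. Gene coordinates are from GENCODE M21 on GRCm38 (1-based), where all 10 members matched by ID and symbol. No pair of replicates agreed within sampling noise.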

Additional observations from a re-analysis of the deposited data

Results flagged for a closer look

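Among 64 group values checked (10 genes and 6 ratios in 4 groups of 4), 10 held a sample whose gap to the nearest other exceeded 0.829 of the group's range, a criterion that chance meets in about 1 of 20 groups. In operated BL6, replicate 4 was far above the others for all 5 fibrillar genes, with 2161 CPM for Col1a1, 2319 CPM for Col1a2, 2027 CPM for Col3a1, 291 CPM for Col5a1 and 304 CPM for Col5a2. In unoperated MRL, replicate 1 was far above the others for Col1a1 (539 CPM), Col1a2 (672 CPM) and Col5a2 (77.8 CPM). Unoperated BL6 replicate 1 held 138 CPM of Col6a2, against 55.2 to 68.6 CPM in the rest of its group. The ratio of Col6a1 to Col6a2 was 0.968 in operated MRL replicate 4, below the other 3 samples of that group.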

How the results depend on the processing

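The count of collagen genes called in BL6 ranged from 4 to 10 on leaving out each sample and was 4 without both samples that stood apart, 10 with DESeq2 and 7 with voom, beside 8 with all samples. In MRL it ranged from 2 to 6 on leaving out each sample, was 8 without both samples and 5 with only the groups compared, beside 2. Among unoperated samples Col1a2 alone was called between strains with only the groups compared (1 gene), and among operated samples the left-out counts ranged from 0 to 1. The cause was not tested. A replicate block left 6 calls in BL6, without Col5a1 and Col6a1, 2 in MRL and 0 elsewhere; for the ratios the block cannot go below an exact p of 0.125, so none could pass. Same-numbered samples correlated on average at -0.14 across surgery in BL6, 0.09 across surgery in MRL, and 0.16 across strains among both unoperated and operated samples. Of the 4 pairs, 1 exceeded 0.1 in the first comparison and 3 in each of the others. Differently numbered samples averaged 0.053, -0.041, -0.046 and -0.044 in the same order. The labels do not say whether same-numbered samples share anything, and these values do not settle it. The main fit did not treat the samples as paired.

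Without both samples the interaction turned positive: 0.14 for Col1a1, 0.18 for Col1a2, 0.67 for Col3a1, 0.48 for Col5a1, 0.54 for Col5a2, 0.048 for Col4a1, 0.023 for Col4a2, 0.29 for Col6a1, 0.32 for Col6a2 and 0.73 for Col6a3. The strain difference among operated samples turned positive too: 0.73 for Col1a1, 0.83 for Col1a2, 0.98 for Col3a1, 0.70 for Col5a1, 0.87 for Col5a2, 0.36 for Col6a1, 0.52 for Col6a2 and 0.61 for Col6a3; that of Col6a3 among unoperated samples became -0.12. With voom the operated difference was 0.14 for Col1a2, 0.34 for Col3a1, 0.061 for Col5a1, 0.24 for Col5a2, 0.032 for Col6a2 and 0.13 for Col6a3. With the replicate block it was 0.18 for Col3a1, 0.086 for Col5a2 and 0.058 for Col6a3, and the interaction of Col6a3 was 0.0047. On leaving out samples the interaction ranged from -2.23 to 0.14 for Col1a1, -1.71 to 0.18 for Col1a2, -1.29 to 0.67 for Col3a1, -1.20 to 0.48 for Col5a1, -1.18 to 0.54 for Col5a2, -0.54 to 0.048 for Col4a1, -0.48 to 0.023 for Col4a2, -0.96 to 0.29 for Col6a1, -0.95 to 0.32 for Col6a2 and -0.52 to 0.73 for Col6a3. The operated strain difference ranged from -0.96 to 0.73 for Col1a1, -0.59 to 0.83 for Col1a2, -0.38 to 0.98 for Col3a1, -0.60 to 0.70 for Col5a1, -0.42 to 0.87 for Col5a2, -0.56 to 0.36 for Col6a1, -0.43 to 0.52 for Col6a2 and -0.33 to 0.61 for Col6a3, and the unoperated one of Col6a3 from -0.12 to 0.43. In MRL the log2 difference of Col1a1/Col1a2 ranged from -0.031 to 0.20 and that of Col1a1/Col3a1 from -0.22 to 0.14.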

Other observations

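The ratio of Col1a1, a fibrillar gene, to Col4a1, a basement membrane gene, was chosen after its values were seen and was not tested. It ranged from 0.572 to 0.706 in unoperated BL6 and from 0.963 to 3.32 in unoperated MRL, with medians of 0.592 and 1.36, so the unoperated groups did not overlap. After surgery it ranged from 0.403 to 2.67 in BL6 and from 0.621 to 1.87 in MRL, and the operated groups overlapped. The highest values in unoperated MRL and operated BL6 were those of the samples that stood apart.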
